A study of Mus musculus with 12 samples.

Results

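The cytosolic ribosomal proteins are the protein parts of the ribosome that translates nuclear-encoded messages in the cytoplasm. Their genes were taken by symbol: Rpl or Rps followed by a number, with the letters a, l, x or y allowed after it, plus Rpsa, Rplp0, Rplp1 and Rplp2. Kinases named Rps6k and pseudogene symbols were left out. The rule found 60 of the 19057 genes named on the array, and 53 of these were among the 10641 genes tested. Of the 60, 24 belong to the small subunit, 33 to the large subunit and 3 to its stalk.

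RNA was measured in freshly isolated liver cells of male, age-matched mice of the B6 strain on 12 Illumina bead arrays. The 4 groups of 3 arrays each were normal hepatocytes, hepatocellular carcinoma (HCC) labelled fully malignant, and hepatocytes labelled premalignant that were either aggregates or non-aggregates. HCC was induced with an injection of DEN (diethylnitrosamine), a carcinogen that hepatocytes convert to its active form. The labels give no dose, age in months or interval after the injection for any group, and no method for separating aggregates. They also do not say whether the mice of the normal group were injected, nor whether replicates came from different animals, so the spread behind each p-value may be technical. The arrays of normal hepatocytes and HCC shared one chip, and those of non-aggregates and aggregates the other.

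A ribosome needs nearly all of its proteins in equal number, and their genes are usually regulated together. Many of their messages begin with a run of pyrimidines called the 5' terminal oligopyrimidine (TOP) motif, through which the kinase mTOR controls how much of each message is translated. Growing cells need more ribosomes, and the transcription factor Myc drives genes of ribosome production in liver tumours. Some ribosomal proteins have a tissue-restricted copy that can replace the common form, and most have processed pseudogenes elsewhere in the genome, so a probe may read more than the gene it is named for.

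The annotated starts of several genes show the pyrimidine run that the TOP motif is named for. The windows run from 10 bases before the RefSeq start (assembly GRCm38.p6) through 20 bases from it, are written 5' to 3' on the strand of the gene, and are shown because the genes below differ in both the run and the result in HCC. Capitals mark pyrimidines read from a C within 5 bases of the start on either side and followed by at least 4 more. Pyrimidines before that C were not checked, so a marked run can be the inner part of a longer one, as in Rpl35. Where there are no capitals no such run was found.
Rpl35: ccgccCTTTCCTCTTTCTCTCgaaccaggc
Rps10: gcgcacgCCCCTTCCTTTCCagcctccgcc
Rpl28: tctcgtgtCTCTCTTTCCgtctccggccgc
Rpl13a: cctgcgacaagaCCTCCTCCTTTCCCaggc
Rpl27a: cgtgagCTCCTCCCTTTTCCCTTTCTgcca
Rps6: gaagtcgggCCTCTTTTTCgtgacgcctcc
Rps12: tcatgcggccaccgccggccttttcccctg
Rps16: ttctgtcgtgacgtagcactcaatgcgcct
Rpl4: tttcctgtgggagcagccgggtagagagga
Rps25: ccgacatcttagcgaggctgctgtggtcta

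Rpl35, Rps10 and Rpl28 were called higher in HCC and carry a run, at chr2:39005112-39005141 (minus strand), chr17:27635225-27635254 (minus strand) and chr7:4792955-4792984 (plus strand). Rpl13a, Rpl27a and Rps6 carry a run and were not called, at chr7:45128726-45128755 (minus strand), chr7:109519185-109519214 (plus strand) and chr4:86857348-86857377 (minus strand). Rps12 and Rps16 were called higher and had no run by this rule, at chr10:23787190-23787219 (minus strand) and chr7:28350679-28350708 (plus strand). Rpl4 and Rps25 were called lower and had none either, at chr9:64173377-64173406 and chr9:44407704-44407733, both on the plus strand.

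RefSeq starts were matched for 49 of the 60 genes. A run was present in 23 of these, 46.9%, against 2042 of the 8583 other tested genes with a promoter entry, 23.8%, and 21.2% of all 27025 genes of the promoter table. The search read the gene's strand only and an annotated start can be off by some bases. A missing run therefore says only that none opened within 5 bases of the annotated start. The Rps12 window holds a pyrimidine run that opens farther downstream and was not counted. By result in HCC, 6 of the 12 matched genes called higher had a run, as did 15 of the 30 not called and 0 of the 2 called lower.

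The probes of most of these genes were bright. Of the 53 tested, 51 were detected (detection p below 0.05) on all 12 arrays, Rps15a on 9 and Rpsa on 6. After normalization 41 had a mean log2 signal above the 90th percentile of the tested genes. Brightness is a property of the probe as well as of the RNA, so it ranks no gene's abundance. The brightest deposited value of a ribosomal protein probe was 40504.1 against 52452.8 for any probe. The remaining 7 genes, Rpl14, Rpl17, Rpl39l, Rpl3l, Rpl6, Rps20 and Rps23, had probes detected on 0 of 12 arrays and were not tested. Rpl6, Rpl14, Rpl17, Rps20 and Rps23 are constituents of every cytosolic ribosome, so a dark probe here does not show that the message is missing. Rpl39l (mainly testis) and Rpl3l (heart and skeletal muscle) are tissue-restricted copies, for which the same probe limit holds.

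Depth and the RNA of cell type markers differed between the groups. Probes detected per array ran from 15354 to 19482, lowest in normal hepatocytes and highest in HCC, and mean signal from 314 to 403. All 11 hepatocyte markers measured were detected in every group. In HCC 2 of them rose, Alb by 1.69 and Serpina1a by 0.45, and 3 fell, Ass1 by 1.5, Cps1 by 0.94 and Hnf4a by 0.61. The list had a summed signal of 225861 to 260650 in normal hepatocytes and 226940 to 237436 in HCC. HCC also held more marker RNA of other liver cells: 13 of 14 endothelial, 10 of 14 macrophage and 10 of 13 stellate and fibroblast markers rose. So did 2 of the 4 T and NK cell markers tested and 1 of the 3 neutrophil markers tested. The 2 bile duct markers tested, Tspan8 and Sox9, rose by 7.60 and 1.81. The 1 B cell marker tested was not called. Summed signal went from 2235–4431 to 9769–13548 for the endothelial list, from 2113–2287 to 11969–17686 for the macrophage list and from 1323–2000 to 10242–17790 for the stellate list, of which 6 genes were undetected in normal hepatocytes. It went from 520–742 to 5426–7638 for the bile duct list. Of the 6 genes of that list on the array 4 were undetected in HCC, so the 2 rises do not show bile duct cells. In aggregates over non-aggregates 4 endothelial, 2 macrophage, 3 stellate and 1 bile duct marker (Tspan8, by 3.40) rose. The part of these cells in the ribosomal protein results was not tested, and in bulk RNA fewer cells of a type and less RNA per cell cannot be told apart.

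HCC against normal hepatocytes asked which genes separate the tumour from normal liver cells. Values below are log2 signals after background correction and quantile normalization, and a change is a difference of group means with its standard error (SE). In HCC 13 of the 53 ribosomal protein genes rose, 24.5%, where 23.2% of all tested genes rose, so in this fit the share of rises was near the background. Only 4 fell, 7.55%, where 25.9% of all tested genes fell. The changes were small: the median over the 53 genes was 0.22, 1.16-fold, against -0.08 over all tested genes, and the median size of a change, in either direction, was 0.28 against 0.50. 1 of the 53 ribosomal protein genes differed by more than 1 on the log2 scale, where 23.2% of all tested genes did. The 3 HCC arrays lay above the 3 normal arrays for 24 of the 53 genes, 45.3% against 24.3% of all tested genes, and below them for 6, 11.3% against 28.5%.

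**Figure D1:**
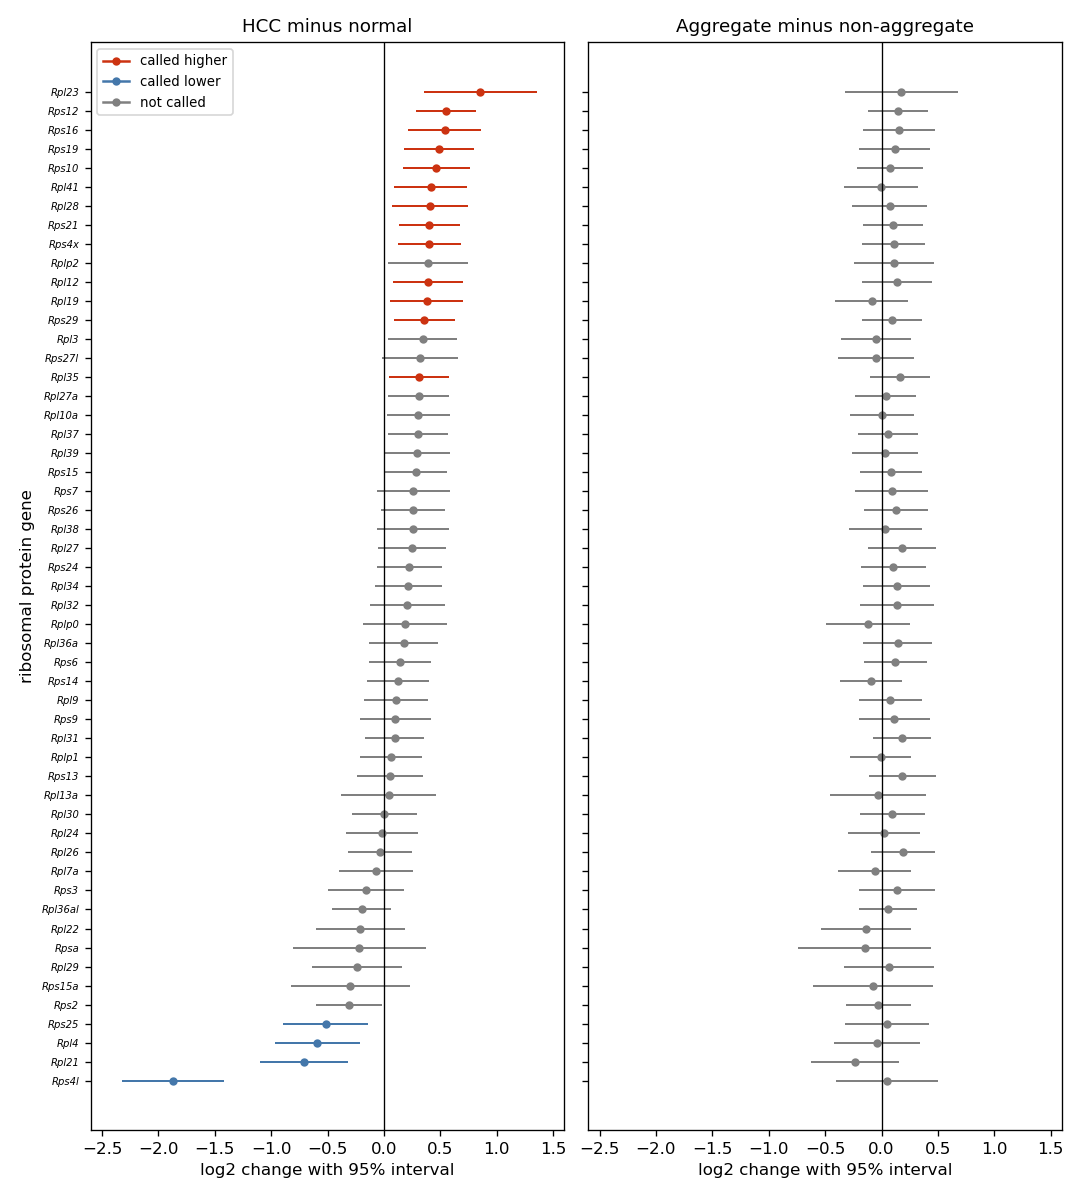
Log2 change (x axis, point) with its 95% interval (line) for each of the 53 tested ribosomal protein genes (y axis, ordered by the HCC change), in HCC minus normal hepatocytes (left) and aggregate minus non-aggregate (right). Red genes were called higher and blue genes lower at an adjusted p below 0.05 over all 10641 genes; 13 are red and 4 blue on the left, 0 of either on the right, and Rps4l stands apart from the rest at -1.87.

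The shift of the whole set against other genes depended on how the arrays were scaled. When each array was only scaled to a common median, the median over all tested genes itself moved to 0.18, 70.8% of all calls were rises instead of 47.2%, and the ribosomal protein median of 0.16 lay 0.01 below that of all genes, where with quantile normalization it lay 0.29 above. Then 3 ribosomal protein genes were called higher, 5.66% against 31.2% of all genes, and 2 lower, where 12.9% of all genes were lower. Of the 17 calls 4 were kept: Rpl23 and Rps12 higher, Rps25 and Rps4l lower. The share of rises stood above the background in other settings. The normalized values deposited by the submitters gave 26 rises, 49.1% against 26.8% of all genes, and 2 falls, where 18.7% of all genes fell. Of all calls 58.9% were rises. Cyclic loess gave 27, 50.9% against 26.8%, and no background correction 21, 39.6% against 22.9%. With only the normal and HCC arrays in the fit 2 genes were called higher, 3.77% against 18.2%, and 2 lower, where 18.2% of all genes were lower. This fit kept 4 of the 17 calls. Leaving out normal replicate 1 left 6 rises, 11.3% against 20% of all genes, and leaving out HCC replicate 1 left 8, 15.1% against 23.3%. Whether these genes rose more often than others thus depended on the setting.

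In the deposited signal itself, before any scaling, the probes of the 53 genes made up 2.36% ± 0.08 (SD, n = 3) of the summed signal of all probes in normal hepatocytes. HCC had a share of 2.70% ± 0.06. Non-aggregates had 2.26% ± 0.08 and aggregates 2.34% ± 0.03. The HCC arrays, at 2.65% to 2.77%, all lay above the other 9, which ran from 2.17% to 2.44%. A share of signal weights bright probes most.

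**Figure D2:**
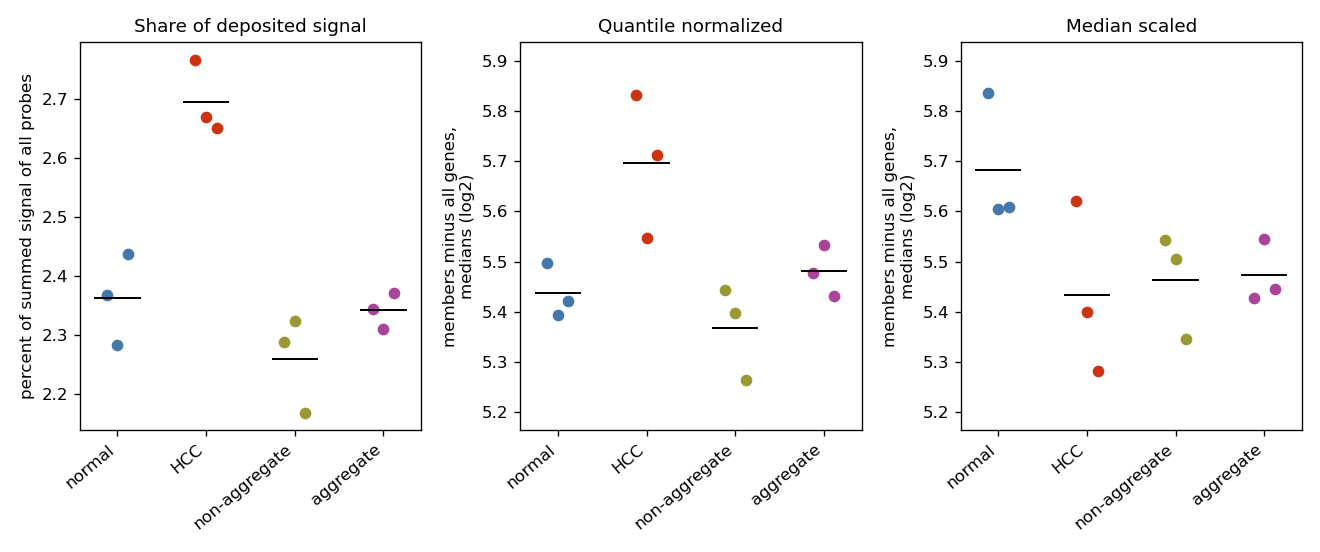
Each point is an array and each bar the mean of its group of 3. Left: the 53 ribosomal protein probes as a percent of the summed deposited signal, with HCC between 2.65% and 2.77% and the other arrays at or below 2.44%. Middle and right: the median log2 signal of these genes minus the median of all tested genes, after quantile normalization and after median scaling; HCC has the highest mean in the middle panel and the lowest in the right one.

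Among small subunit proteins 7 of 22 rose, 31.8%, and 2 fell, 9.09%, with a median change of 0.24; of all tested genes 23.2% rose and 25.9% fell. Rps12, a protein of the small subunit's head, measured 13.25, 13.27 and 13.45 on the normal arrays and 13.88, 13.87 and 13.87 on the HCC arrays. Its non-aggregate values were 13.39, 13.46 and 13.40 and its aggregate values 13.58, 13.52 and 13.58. All HCC arrays were thus above every other array, with a rise of 0.55 (SE 0.12, 1.46-fold, adjusted p = 0.00227). Of 18 alternative settings 17 kept this call, and the second Rps12 probe rose by 0.61.

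Rps16, whose tail reaches the peptidyl-tRNA site, read 11.71, 11.62 and 12.07 in normal hepatocytes and 12.31, 12.27 and 12.44 in HCC. The groups did not overlap, and the rise was 0.54 (SE 0.14, adjusted p = 0.00848). Its aggregates (11.94, 11.90 and 12.09) also lay just above its non-aggregates (11.82, 11.88 and 11.77), a difference of 0.15 (SE 0.14) that was not called.

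Rps19, mutated in the human anaemia of Diamond and Blackfan, gave 12.42, 12.32 and 12.23 in normal hepatocytes and 12.92, 12.58 and 12.94 in HCC, a rise of 0.49 (SE 0.14, adjusted p = 0.0121). A second, dim Rps19 probe went the other way, by -0.83 (adjusted p = 0.052 in a fit of all probes). Rps10, at the head of the small subunit, was tight in normal hepatocytes at 11.42, 11.46 and 11.45 and reached 11.93, 11.81 and 11.98 in HCC. Its rise of 0.46 (SE 0.13, adjusted p = 0.0118) was carried by every HCC array. Rps16, Rps19 and Rps10 each lost the call in 3 of the 18 settings, and Rps19 reversed in 1 more, with its dim probe.

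Rps21, Rps4x and Rps29 rose by 0.40, 0.40 and 0.36. Each had all HCC arrays above all normal arrays, and they lost the call in 3, 4 and 6 of the 18 settings. The remaining small subunit genes that were measured but not called ran from Rps2, a protein at the channel by which the message enters, at -0.31 (SE 0.13), to Rps27l at 0.32 (SE 0.15).

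Rps4l, a copy of Rps4x on chromosome 6, stood apart in the size of its change. It measured 7.20, 7.32 and 6.70 in normal hepatocytes, 7.15, 7.28 and 7.00 in non-aggregates and 7.07, 7.20 and 7.30 in aggregates. In HCC it measured 4.96, 5.60 and 5.04, well under all 9 other arrays, and was detected on every array. The fall was 1.87 on the log2 scale (SE 0.20, 3.66-fold lower, adjusted p = 2.14e-05) and was called in all 18 alternative settings, with adjusted p from 1.56e-05 to 0.00131. Over these settings the change ran from -2.07 to -1.15. The 1 probe was dim, with deposited signals from 74.7 to 197, and the undetected Rpl14 averaged 4.43 in HCC. The size of the Rps4l fall is therefore less certain than its direction. Its X-linked relative Rps4x went the other way, from 12.71, 12.89 and 13.02 to 13.32, 13.26 and 13.25 (adjusted p = 0.0181).

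Rps25, a protein that some viral internal ribosome entry sites require, was the other small subunit gene that fell. Normal hepatocytes gave 11.44, 11.46 and 11.29 and HCC gave 10.65, 11.11 and 10.88, a fall of 0.52 (SE 0.17, adjusted p = 0.0234) that lost its call in 9 of the 18 settings. Its premalignant arrays, 11.01, 11.18 and 10.71 in non-aggregates and 11.10, 10.81 and 11.13 in aggregates, overlapped those of HCC.

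**Figure D3:**
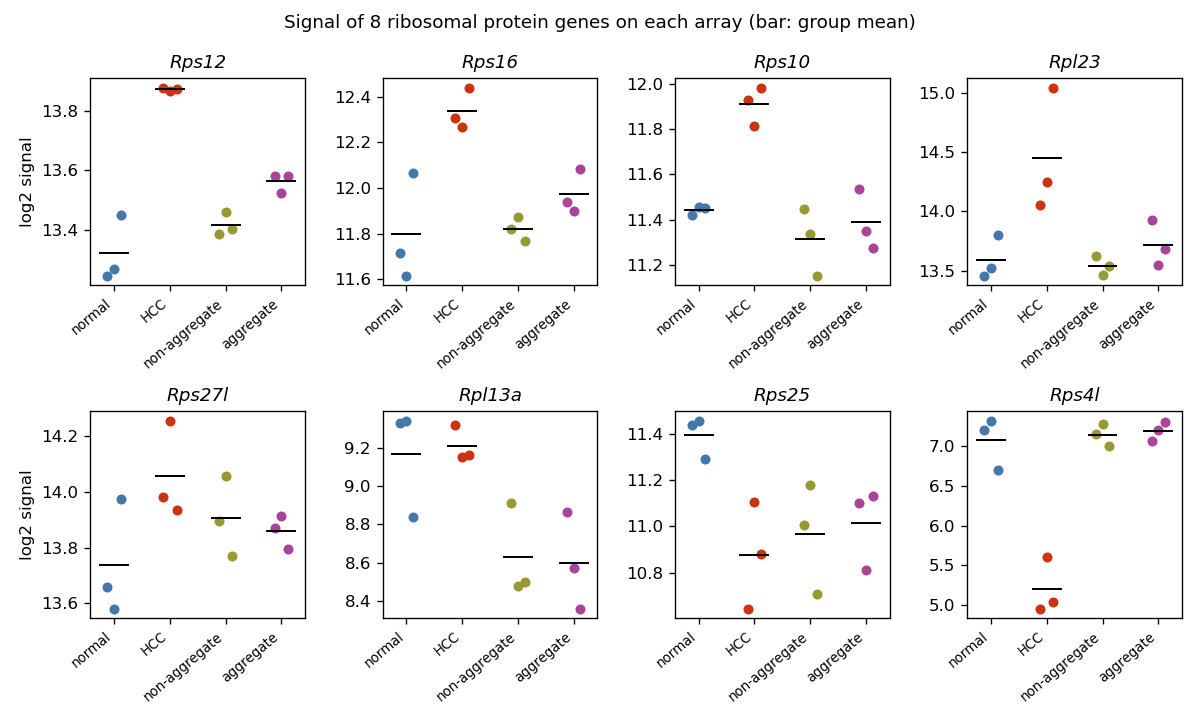
Log2 signal (y axis, quantile normalized, each panel with its own scale) of 8 ribosomal protein genes on every array, by group, with a bar at the group mean of 3 arrays. Rps12, Rps16, Rps10 and Rpl23 are higher in HCC, Rps25 and Rps4l lower, and Rps27l and Rpl13a were not called in that comparison.

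Among large subunit proteins 6 of 28 rose, 21.4% and so near the background, and 2 fell, 7.14%, with a median change of 0.21. Rpl23, which also binds the p53 inhibitor Mdm2, had the largest rise of the 53, from 13.46, 13.52 and 13.80 to 14.05, 14.25 and 15.04. The rise was 0.85 (SE 0.23, 1.81-fold, adjusted p = 0.00807), and HCC replicate 3 stood well above the other HCC arrays. It was the one gene of the set whose probes were called in opposite directions: in the fit of all probes a second bright probe gave 0.01, and 2 dimmer ones fell by 0.58 and 0.67. The result for Rpl23 therefore differs by probe.

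Rpl41, the shortest ribosomal protein, read 14.58, 14.47 and 14.93 in normal hepatocytes and 15.19, 15.09 and 14.95 in HCC. The rise was 0.41 (SE 0.15, adjusted p = 0.0327), and the lowest HCC array cleared the highest normal array by a narrow margin. The call was lost in 7 of the 18 settings. Rpl28, Rpl12, Rpl19 and Rpl35 rose by 0.41, 0.39, 0.38 and 0.31, Rpl19 with overlapping arrays; a dim second probe of Rpl28 read -0.31 and was not called. These calls were weak: they were lost in 9, 8, 8 and 10 of the 18 settings, and the Rpl28 change reversed in 1 more, with that probe.

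Rpl21 and Rpl4 fell. Rpl21 gave 6.30, 5.96 and 5.82 in normal hepatocytes and 5.60, 4.99 and 5.36 in HCC, a fall of 0.71 (SE 0.18, adjusted p = 0.00567), and its 3 probes fell together, by 0.71, 0.68 and 0.61. All 3 were dim, with mean deposited signals of 88.2, 74.1 and 71.5 against 52.8 for the undetected Rpl14 probe. Over the settings the Rpl21 change ran from -0.85 to -0.16. Rpl4, a protein that lines the exit tunnel, went from 9.51, 9.39 and 9.56 to 9.21, 8.50 and 8.98, a fall of 0.59 (SE 0.17, adjusted p = 0.0128). The groups did not overlap for either gene, and the calls were lost in 2 settings for Rpl21 and 5 for Rpl4.

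None of the stalk proteins, which recruit the elongation factors to the ribosome, was called. Rplp1 read 14.65, 14.51 and 14.60 in normal hepatocytes and 14.69, 14.70 and 14.56 in HCC, a difference of 0.06 with a 95% interval from -0.20 to 0.33. Rplp2 differed by 0.39 (SE 0.16, adjusted p = 0.0572) with HCC arrays (12.99, 12.73 and 12.72) above normal arrays (12.25, 12.31 and 12.70). Rplp0 read 6.96, 6.93 and 6.56 against 7.11, 6.98 and 6.92, a difference of 0.19 (SE 0.17). Its probe was dim, with a mean deposited signal of 146, and a dimmer second probe differed by -0.14. Over the 18 settings the Rplp0 change ran from -0.14 to 0.60. Rplp0 was called higher in 1 of these settings, Rplp1 in 2 and Rplp2 in 5.

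Other ribosomal proteins with roles outside the ribosome were not called in HCC. Rps6, the substrate of the S6 kinases, differed by 0.14 (SE 0.12, 95% interval from -0.13 to 0.41). Rps3, which also acts in DNA repair, differed by -0.16 (SE 0.15), Rpl13a, a regulator of inflammatory message translation in human cells, by 0.04 (SE 0.19), and Rpsa, also known as the laminin receptor, by -0.22 (SE 0.27). Rpsa was near the detection limit and the SE of its HCC change was the largest of the 53 genes, with values from 4.46 to 5.45 in normal hepatocytes.

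Several of these proteins have a close copy. Rps27l, a copy of Rps27 (not analysed here) and a p53 target, differed by 0.32 (SE 0.15, adjusted p = 0.0994). Rpl36a differed by 0.17 (SE 0.14) and its copy Rpl36al by -0.20 (SE 0.12), neither called. Rpl3, a protein near the peptidyl transferase centre, and Rpl39, a protein of the exit tunnel, differed by 0.34 (SE 0.14, adjusted p = 0.058) and 0.30 (SE 0.13, adjusted p = 0.079), while the probes of their copies Rpl3l and Rpl39l were dark. Rpl22 read 9.17, 9.06 and 9.13 in normal hepatocytes and 8.89, 8.52 and 9.32 in HCC, a difference of -0.21 (SE 0.18). Its copy Rpl22l1, which falls outside the symbol rule and is repressed by Rpl22 in mice, went from 7.29, 7.22 and 7.49 to 7.97, 7.75 and 7.83, a rise of 0.52 (SE 0.14, adjusted p = 0.00915). Of the other genes just outside the rule, Rpl7l1, a relative of Rpl7 that acts in ribosome assembly, fell by 0.63 (SE 0.14, adjusted p = 0.00262), and Rps3a1, a small subunit protein, differed by -0.33 (SE 0.16, adjusted p = 0.0952). Whether each gene of a pair differed from the other in its response was not tested.

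Several genes had more than 1 probe, and the probes did not always go together. Of 20 genes with several probes, 17 had more than 1 that passed the detection filter, and 8 of these 17 had the same sign of the HCC change on every such probe. Further probes of Rps24, Rpl27a and Rps2 fell, by 0.50, 0.38 and 0.51, where the brightest probes of these genes were not called. The dimmest passing probe in place of the brightest gave 8 rises, 15.1% against 20% of all genes.

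Over the 53 genes, brighter probes had the more positive HCC changes, with a Pearson r of 0.58 and a Spearman rho of 0.47 between mean log2 signal and change, and a Pearson r of 0.54 without Rps4l. This correlation is across genes, which share arrays and normalization and are not independent, and it is given as a description.

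**Figure D4:**
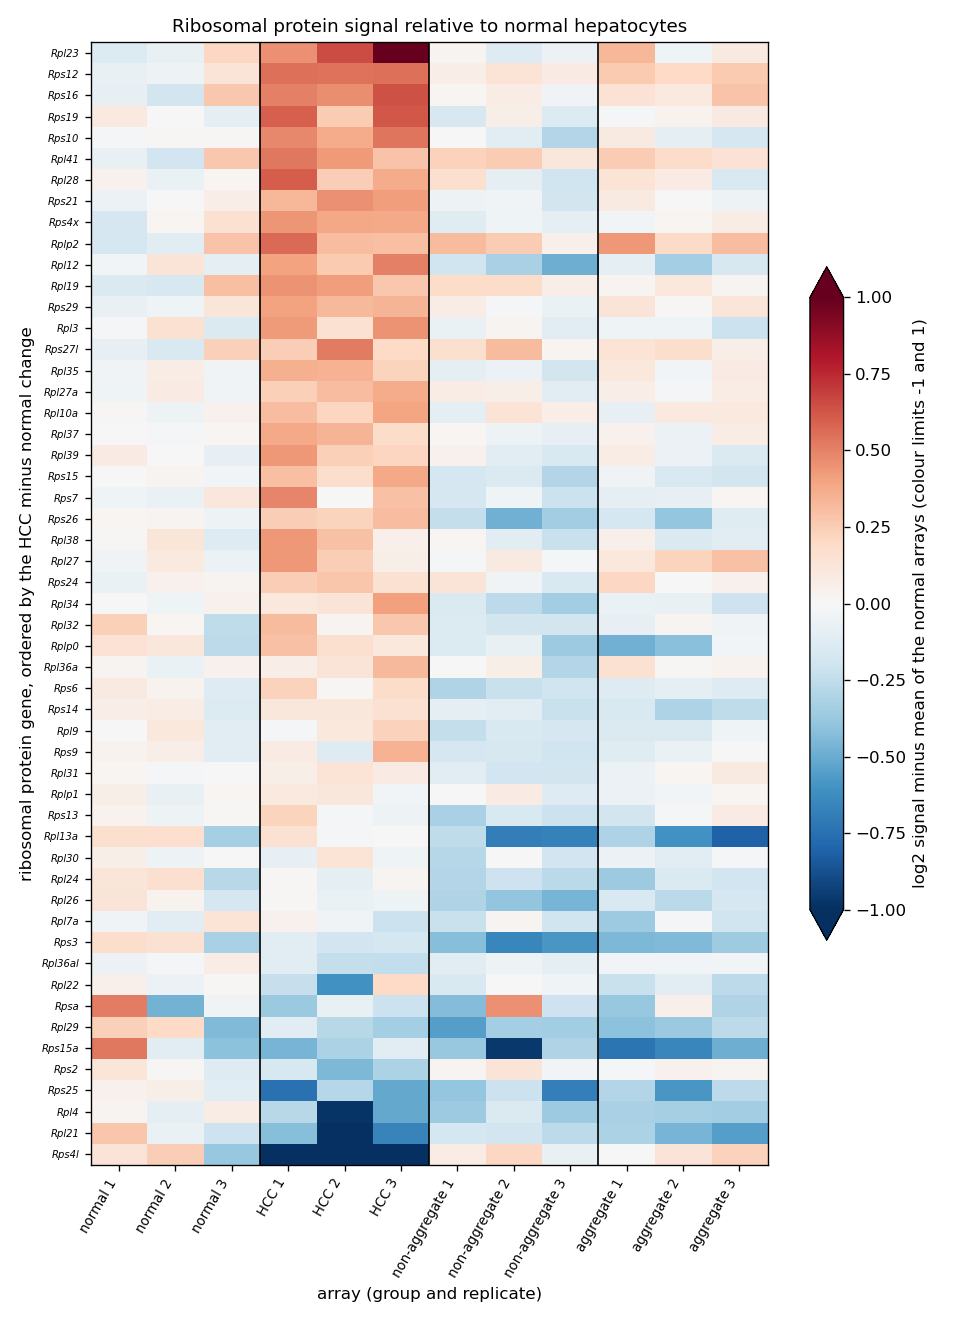
Log2 signal of the 53 tested ribosomal protein genes (rows, ordered by the HCC minus normal change) on the 12 arrays (columns, by group and replicate), as the difference from the mean of the normal arrays; red is higher and blue lower, with colour limits at -1 and 1. HCC is mostly red in the upper rows, the non-aggregate arrays are mostly pale to blue, and Rps4l, the last row, is deepest blue on the HCC arrays.

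Aggregates against non-aggregates compared the premalignant cells by aggregation, on the same chip. Same-numbered arrays of these groups deviated together, and the fit behind the values below does not use this pairing. With the replicate number in the fit 0 genes of the set were called as well. No ribosomal protein gene was called by limma in either direction, and 0 had an unadjusted p below 0.05, where 5.76% of all tested genes had one towards aggregates and 1.44% towards non-aggregates. Among all tested genes 0.742% were called higher and 0% lower. The median over the 53 genes was 0.07, against -0.03 over all genes, and 38 of the 53 differences were positive, 71.7% against 42.1% of all genes. With median scaling the median turned to -0.019, against -0.06 over all genes, and without non-aggregate replicate 3 it was 0.03. The 95% intervals of all 53 lay within 0.73 of no difference on the log2 scale.

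The largest differences towards aggregates were those of Rpl26, Rps13 and Rpl27. Rpl26, a regulator of p53 translation in human cells, read 12.20, 12.11 and 12.04 in non-aggregates and 12.35, 12.23 and 12.34 in aggregates, a difference of 0.19 (SE 0.13). Rps13 and Rpl27 differed by 0.19 and 0.18 (SE 0.13 each). In the other direction Rpl21 differed by -0.24 (SE 0.18), Rpsa by -0.15 (SE 0.27) and Rpl22 by -0.14 (SE 0.18). The aggregate arrays lay above all non-aggregate arrays for 12 genes, 22.6% where 9.48% of all tested genes did so, and below them for 1, Rpl21, 1.89% against 8.14%. The 12 included Rps12, Rps16, Rps4x and Rpl35, which were called higher in HCC, and Rps6 and Rpl26, which were not.

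The difference between the HCC change and the aggregate change was called for 1 of the 53 genes, Rps4l, at -1.92 (SE 0.29, adjusted p = 0.00107). Over all tested genes 9.99% had a lower and 10.9% a higher difference. Rps4l read nearly alike in aggregates and non-aggregates, where its difference was 0.05 (95% interval from -0.40 to 0.49). For the other genes called in HCC no difference between these changes passed the test: Rpl23 came to 0.68 (SE 0.32, adjusted p = 0.152) and Rps25 to -0.57 (SE 0.24, adjusted p = 0.113).

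Both premalignant groups were also set against normal hepatocytes, which lay on another chip, so that chip and group cannot be told apart here. The 2 comparisons share the normal arrays. No ribosomal protein gene was called by limma in either one. Against normal hepatocytes 0.78% of all tested genes were called higher and 0.686% lower in non-aggregates, and 3.27% and 1.71% in aggregates. In non-aggregates 8 ribosomal protein genes had an unadjusted p below 0.05, and in aggregates 5, all of them lower. These are 15.1% and 9.43% of the 53, against 7.33% and 10.2% of all tested genes.

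Rps3 read 12.38, 12.35 and 11.88 in normal hepatocytes and 11.78, 11.55 and 11.62 in non-aggregates, a difference of -0.55 (SE 0.15, adjusted p = 0.107). Its aggregates, at 11.76, 11.76 and 11.85, differed from normal hepatocytes by -0.41 (SE 0.15, adjusted p = 0.136). Rpl13a read 9.33, 9.34 and 8.84 in normal hepatocytes against 8.91, 8.48 and 8.50 in non-aggregates and 8.87, 8.57 and 8.36 in aggregates, differences of -0.54 and -0.57 (SE 0.19 each). Both genes had normal replicate 3 as the lowest normal array.

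The non-aggregate arrays lay below all normal arrays for 14 of the 53 genes, 26.4% against 11.2% of all tested genes, and above them for 0, against 11.7%. Aggregate arrays lay below all normal arrays for 10, 18.9% against 13.9%, and above them for 2, 3.77% against 14.5%. The median difference was -0.10 in non-aggregates and -0.04 in aggregates, against -0.004 and -0.01 over all genes. Taking the group means of each gene, HCC was the highest of the 4 groups for 39 genes, 73.6% against 36.4% of all tested genes, and normal hepatocytes for 12, 22.6% against 30.6%. Non-aggregates and aggregates were highest for 1 gene each. For 44 of the 53 genes the highest and the lowest group mean were less than 1.5-fold apart, 83% against 45.9% of all tested genes, and the widest gap was the 3.97-fold of Rps4l.

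Other genes that make or run ribosomes give the setting of these values. Mitochondrial ribosomal proteins, which build the separate ribosome of the mitochondrion, fell in HCC: 49 of 72 were lower, 68.1% against the 25.9% of all tested genes, and 2 higher, with a median change of -0.58. Mrpl49 fell by 1.67 (SE 0.21), Mrps31 by 1.32 (SE 0.18), Mrps22 by 1.30 (SE 0.19) and Mrpl1 by 1.27 (SE 0.19). Over the background and scaling alternatives between 31 and 51 of the 72 were called lower and between 1 and 3 higher.

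Ribosome assembly factors of the nucleolus had 15 of 33 lower, 45.5%, and 1 higher, with a median of -0.43. Tsr1, a late assembly factor of the small subunit, fell by 1.74 (SE 0.27), Ncl, the nucleolar protein nucleolin, by 1.55 (SE 0.28), Rrs1 by 1.07 (SE 0.21) and Ltv1 by 1.01 (SE 0.25). RNA polymerase I and III genes, which transcribe ribosomal RNA and transfer RNA, had 4 of 20 lower, 20% and so under the share of all tested genes, and 1 higher. Polr3k fell by 1.42 (SE 0.20).

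Translation factors and other genes whose messages carry a TOP motif were divided, with 3 of 17 higher, 17.6%, 4 lower, 23.5%, and a median of -0.16; both shares lay below those of all tested genes. Pabpc1, the poly(A) binding protein, rose by 1.21 (SE 0.18) and Eef1b2, an elongation factor subunit, by 0.91 (SE 0.15). Eif4a2, a helicase of initiation, fell by 0.56 (SE 0.17) and its cofactor Eif4b by 0.55 (SE 0.15). Of the other initiation factors 5 of 21 were lower, 23.8% and so near the background, and 0 higher, among them Eif2s3x (-0.90, SE 0.19) and Eif2b1 (-0.80, SE 0.15).

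Among Myc and mTOR pathway genes 3 of 20 rose and 3 fell, 15% each way, below the shares of all tested genes. Eif4ebp2, an inhibitor of cap-dependent initiation, rose by 1.46 (SE 0.44) and Sesn2, an inhibitor of mTOR, by 1.45 (SE 0.23), while the Myc antagonist Mxi1 fell by 1.18 (SE 0.20). Mtor itself rose by 0.54 (SE 0.16). Cell division genes had 10 of 16 higher, 62.5%, and 1 lower, with a median of 1.11. In aggregates over non-aggregates 0 genes of these 7 lists were called in either direction.

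**Figure D5:**
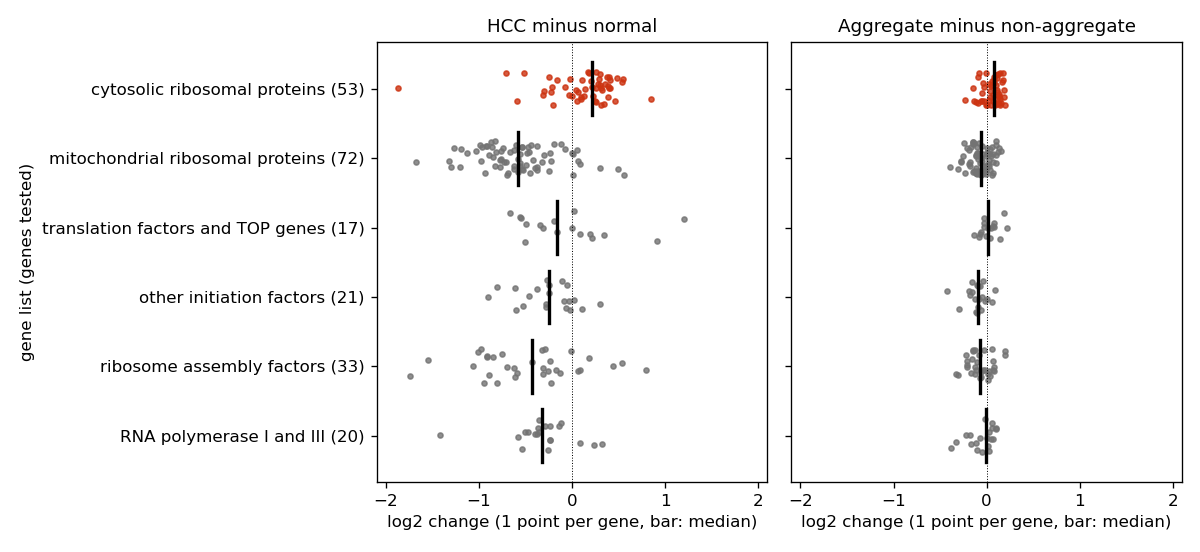
Log2 change of each tested gene (x axis, 1 point per gene) in 6 lists (y axis, number of genes tested in brackets), in HCC minus normal hepatocytes (left) and aggregate minus non-aggregate (right); the bar is the median of the list. In HCC the cytosolic ribosomal proteins have a median of 0.22 and the mitochondrial ones of -0.58, while on the right the medians of these 2 lists are 0.07 and -0.06.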

How the data were processed

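Per the labels' protocols, arrays were hybridised with biotin-labelled total RNA. The main deposited table holds the average signal intensity per probe and array, linear and not background subtracted (lowest value 30.6), and a detection p-value, per the file headers. A deposited normalized intensity served as an alternative; sources used here do not give its method.

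Signals were background corrected by detection p (offset 16), quantile normalized and taken to log2 (neqc, limma 3.58.1, R 4.3.3). Probes with detection p below 0.05 on at least 3 arrays were kept (19670 of 45281). Each gene was represented by the probe with the highest mean signal. Names came from the platform annotation, updated by gene ID through RefSeq. Group means over all 12 arrays were fitted with lmFit and eBayes (2-sided); a call is a Benjamini-Hochberg adjusted p below 0.05 over 10641 genes. The fit was tested on simulated data. Members and lists were chosen with earlier results of these data known. Values are given for the members called with the largest changes and a panel of stalk proteins, paralogue pairs and proteins with other roles; up to 4 called genes stand for each other list. Rps27a, Rps27, Rpl5, Rpl10, Rpl10l and Rpl11 were not analysed here.

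Same-numbered aggregate and non-aggregate arrays deviated together (r = 0.71, 0.54 and 0.64). The replicate block treats them as pairs, and the source of the shared deviation was not tested. The number of arrays limits precision. Alternatives covered background, scaling, filter, probe, samples in the fit, array weights, the replicate block and leaving out each array. Figures were drawn with matplotlib 3.10.9 in Python 3.11.15.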

Additional observations from a re-analysis of the deposited data

How the results depend on the processing

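Over 24 settings, 12 of them leaving out 1 array, 244 of 279 counts and medians stayed within 1.5 times the main count or 0.09 of the main median, many of them counts of 0, and 576 of 687 single-gene results kept their side of the threshold; 82 single-gene results lost their call, 26 gained one and 3 reversed. The reversals, all with the dimmest probe, were Rpl28 (-0.31), Rps19 (-0.83) and Rpl23 (-0.67). In HCC the number of rises was 21 without background correction, 3 with median scaling, 27 with cyclic loess and 26 with the submitters' values. It was 28 with loess that ignored the ribosomal protein genes (52.8% against 26.9% of all genes) and 20 without a detection filter (33.3% against 12.6%). The dimmest probe gave 8 (15.1% against 20%) and only the groups compared 2 (3.77% against 18.2%). The replicate block gave 1 (1.89% against 18.4%), with 3 of 17 calls kept. Falls numbered 2 with median scaling, the submitters' values, only the groups compared and the block. Of all genes 12.9%, 18.7%, 18.2% and 17.6% fell in these settings. Normal and HCC arrays share only a number (r of same-numbered deviations -0.01, 0.13 and 0.11). In the aggregate comparison the block changed no call, with 0 genes called. The median HCC change was 0.36 and 0.38 with the 2 loess fits and 0.13 with the dimmest probe, which also gave -0.12 for aggregates against normal hepatocytes and 0.07 for the difference of changes. The aggregate median turned to -0.019 with median scaling. Falls against normal hepatocytes numbered 1 in non-aggregates with the submitters' values and 2 with array weights, and in aggregates 1 with median scaling and 2 with array weights, where the median became -0.15 with median scaling. Shares of all genes in these settings are not given here. In the main fit 0.686% of all genes were lower in non-aggregates and 1.71% in aggregates. The difference of changes gave 1 rise without background correction, with median scaling or without a filter, 2 with loess and with the submitters' values and 4 with loess that ignored these genes, and its median was 0.26 and 0.27 with the loess fits. In the main fit 10.9% of all genes had a higher and 9.99% a lower difference, and shares in these settings are not given here. Leaving out 1 array gave 6 to 13 rises, 3 to 6 falls and a median of 0.17 to 0.23 in HCC. Of all genes 20% to 23.3% rose and 21.5% to 25.7% fell in these fits. For the aggregate comparison leaving out 1 array gave a median of 0.03 to 0.10. It gave 0 to 2 falls in non-aggregates and 0 to 3 in aggregates against normal hepatocytes, the highest without normal replicate 3, with medians of -0.14 to -0.08 and -0.07 to -0.03. For the difference it gave 0 to 2 rises (2 without normal replicate 3), 1 to 2 falls (2 without HCC replicate 1) and a median of 0.08 to 0.16. Outside the HCC comparison, shares of all genes without 1 array are not given here. The causes were not tested. The median SE of a change over these genes was 0.14, and probes near background, such as Rpsa, limit what can be seen.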
